A study of Drosophila melanogaster with 3 samples.

Results

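The regions described here are peaks for a tagged form of the transcription factor Eagle that lie inside genes, in introns other than the first and away from promoters. They were taken from the list of peaks that the authors call conservative. A member is a peak whose summit, the base of highest signal, lay more than 500 bp from every annotated transcription start site (TSS) and in no exon of any gene. The summit also lay in an intron of a protein-coding transcript and in the first intron of no such transcript. This rule uses position only, not peak strength, and it gave 1435 of 9369 peaks on the main chromosomes, or 15.3% (95% Wilson interval 14.6% to 16.1%).

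The data are chromatin immunoprecipitation with sequencing (ChIP-seq) of whole prepupae of Drosophila melanogaster, with a labelled age of 2 days, in 3 biological replicates of 1 group. All animals carried an insertion that expresses Eagle, the product of eg, fused to eGFP (strain eg-GFP), and an anti-GFP antibody was used. There was no other genotype, stage or treatment, so conditions could not be compared. The precipitated protein is the tagged fusion and the chromatin came from all tissues together, so strong binding in few cells and weak binding in many cannot be told apart.

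Eagle belongs, with Knirps and Knirps-like, to a small family of nuclear receptors without a known ligand. It is known above all for specifying serotonergic neurons in the embryonic nerve cord. Introns are removed from the transcript, but their DNA often holds enhancers and silencers, stretches where transcription factors bind and act on a promoter that may be far away or belong to another gene. In Drosophila the first introns of developmental genes are particularly known for such elements. The prepupa is the stage at which the steroid hormone ecdysone starts metamorphosis through a cascade of early genes, many of which encode nuclear receptors and other transcription factors.

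The sequences below are the summit base and the 50 bp on either side of it, for strong members only. The members are those ranked 1 to 4 and 6 to 9 by signal. Most of these windows were poorer in G and C than the average member window (35.5%). They are from the RefSeq copy of the dm6 assembly, forward strand, 5′ to 3′. Capitals mark matches on either strand to any of the short motifs searched for, which are spelled out further on. The window of the member ranked 5, in Psc, is not shown here.
CG11050 (chr2L:6612658-6612758): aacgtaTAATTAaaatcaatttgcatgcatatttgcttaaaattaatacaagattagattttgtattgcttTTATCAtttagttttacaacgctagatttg
Trl (chr3L:14759472-14759572): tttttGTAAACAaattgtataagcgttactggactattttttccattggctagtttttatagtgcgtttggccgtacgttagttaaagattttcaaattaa
JIL-1 (chr3L:11084741-11084841): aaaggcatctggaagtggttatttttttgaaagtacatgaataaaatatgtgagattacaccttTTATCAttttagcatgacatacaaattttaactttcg
Raf (chrX:2300655-2300755): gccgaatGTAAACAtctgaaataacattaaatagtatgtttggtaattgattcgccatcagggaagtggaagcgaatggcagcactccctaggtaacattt
upSET (chr3L:14005030-14005130): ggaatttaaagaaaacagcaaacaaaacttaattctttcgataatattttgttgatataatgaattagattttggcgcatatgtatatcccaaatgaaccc
CG5854 (chr3R:23934397-23934497): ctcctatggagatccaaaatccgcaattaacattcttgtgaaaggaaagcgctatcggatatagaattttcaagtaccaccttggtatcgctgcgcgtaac
MYPT-75D (chr3L:18640640-18640740): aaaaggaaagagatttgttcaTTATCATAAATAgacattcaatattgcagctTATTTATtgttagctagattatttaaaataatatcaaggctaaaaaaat
E23 (chr2L:3348261-3348361): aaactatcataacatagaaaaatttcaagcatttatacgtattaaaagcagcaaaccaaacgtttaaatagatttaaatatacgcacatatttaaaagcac

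The window at CG11050 had a GC content of 22.8%, against 51% in the windows 200 bp to either side. At MYPT-75D it was 21.8% against 51.5%, at E23 24.8% against 46%, and at JIL-1 27.7% against 42.1%. The window at upSET also had 27.7%, against 45.0%, and that at Trl had 29.7% against 51%. The summits in Raf (39.6% against 52.5%) and CG5854 (42.6% against 56.4%) were less poor in G and C, but also lay below their flanks. Of these windows, those of upSET, CG5854 and E23 held none of the motifs. The introns that hold the summits of CG11050 (140 bp) and CG5854 (219 bp) are short, so the windows 200 bp away lie outside them. For these summits the comparison is of intron sequence with sequence beyond the intron.

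Later introns held fewer Eagle summits than their length would give if summits were spread evenly. They make up 22.1% of the bases of the main chromosomes (29.5 Mb) and 15.3% of conservative summits, a ratio of 0.694, or 48.6 summits per megabase. First introns held 2661 summits at 120.6 per megabase, promoters 3580 at 197.3 per megabase, and intergenic sequence 1312 at 36 per megabase. The same classes were then counted in each replicate's own thresholded peak list. Later introns held 962 summits in replicate 1, 880 in replicate 2 and 1066 in replicate 3, which is 15.5%, 14.6% and 14.3% of each list (14.8% ± 0.631, SD, n = 3). All 3 lists put the share below that of the bases.

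**Figure D1:**
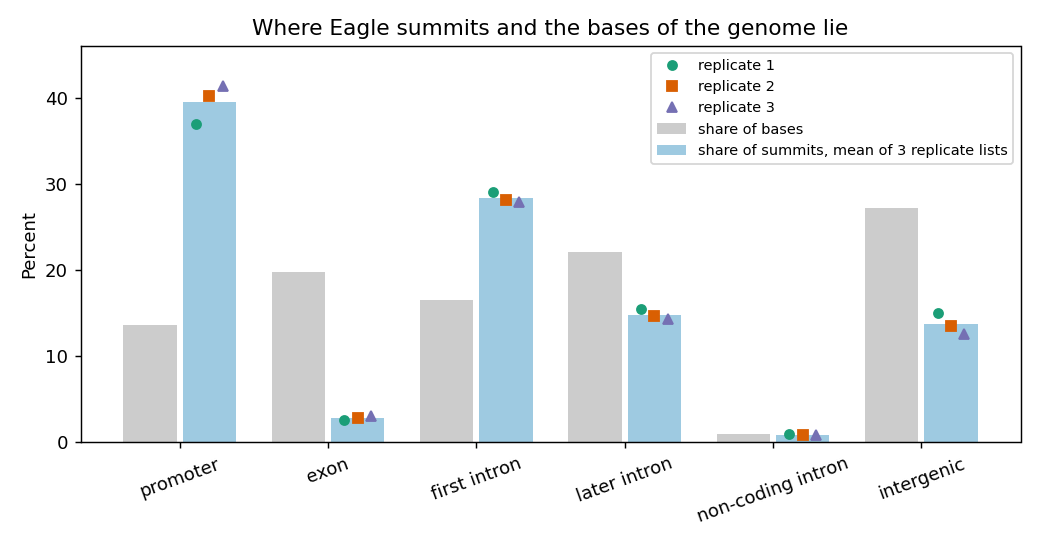
Share of the bases (grey bars) and of Eagle summits (blue bars, mean of 3 replicate lists; symbols, each replicate) in each class of sequence, in percent. Summits in later introns took 14.3% to 15.5% of each list and 22.1% of the bases, while those in first introns took a larger share of summits than of bases.

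The density of summits in later introns was 0.398, 0.389 and 0.382 times that in first introns in replicates 1, 2 and 3 (0.390 ± 0.00806, SD). Against promoters the ratio was 0.231 ± 0.0238, and against intergenic sequence it was 1.34 ± 0.0615. In each of these 3 comparisons all replicates lay on the same side of 1. A two-sided exact sign-flip permutation test over the replicates gave p = 0.25 for each, which is the smallest p that 3 replicates can give, so no comparison here can reach 0.05. That limit holds for every test of this kind below, and the values of the single replicates are given in its place.

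Peaks in later introns were somewhat weaker than those in first introns, at promoters and between genes, in every replicate. The authors' signal of the conservative members ran from 2.08 to 3471.8 with a median of 131.1, against 139.0 for first introns, 141.0 for promoters and 133.7 for intergenic peaks. Of the members, 39 (2.72%) were among the 500 strongest conservative peaks, compared with 3.20% of intergenic, 5.45% of first-intron and 7.37% of promoter peaks and 5.34% of all. Within each replicate's own list, the median member stood at percentile 45.7, 47.3 and 47.6 of signal. The difference was −3.92 ± 1.06 percentile points from first-intron peaks, −5.26 ± 2.09 from promoter peaks and −1.11 ± 0.138 from intergenic peaks (SD, n = 3). Each difference had the same sign in 3 of 3 replicates (exact sign-flip permutation p = 0.25, adjusted p = 0.25 over the 3 comparisons). Signal varied much more within the members, whose quartiles lay at 89.5 and 213.2.

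Of the 1435 members, 605 (42.2%, Wilson interval 39.6% to 44.7%) were overlapped by a peak of all 3 replicate lists, against 43.8% of all conservative peaks. A further 270 were overlapped in 2 lists, 287 in 1 and 273 in none. The share in no list was 19.0%, against 16.4% of all conservative peaks. Replicate 1 overlapped 58.0% of members, replicate 2 59.9% and replicate 3 66.3%. The series list draws on the reads of all 3 replicates, so these overlaps are not independent evidence of a site. Agreement went with signal: of the 359 strongest members 351 were in all 3 lists, of the next 358 it was 205, and in the lower quartiles it was 23 and 26 of 359 each. In the longer ranked lists, which hold weaker peaks, 1320 members (92.0%) were overlapped in all 3 replicates, near the 91.5% of all conservative peaks.

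The weakest members mostly lay on top of other peaks. Of the 93 members with a signal under 40, a limit chosen after the values were seen, 88 overlapped another conservative peak, and 20 were in all 3 replicate lists. In the whole conservative list 526 of the 571 peaks under that limit overlapped another and 130 were in all 3 lists, so this is not particular to later introns. Among all members 212 (14.8%) overlapped another conservative peak, which is also the share in the whole list. These members count as separate summits here, although they share bases with a neighbour.

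The strongest later-intron peak lay in CG11050 (FBgn0031836), at chr2L:6612397-6612987, and ranked 3 in the whole conservative list with a signal of 3471.8. Its signals in the replicates' own lists were 1130.3, 1207.5 and 1078.4. Its summit was 1021 bp from the nearest TSS, in an intron of only 140 bp, so the peak of 591 bp reaches over the exons on both sides. All 3 values lay above those of every other member of the 20 strongest.

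The next in rank lay in Trl, JIL-1 and Raf. The peak in Trl, which encodes the GAGA factor, was at chr3L:14759332-14759709 in an intron of 3233 bp, with a signal of 1730.6 and replicate signals of 642.7, 567.3 and 527.0. JIL-1, a kinase of histone H3, held one in its intron 3 at chr3L:11084646-11084926, 7065 bp from the TSS, with a signal of 1691.1 and replicate signals of 588.4, 526.9 and 567.3. Raf, the kinase that acts below Ras, held one at chrX:2300558-2300855 in an intron of 43637 bp, with replicate signals of 567.4, 498.4 and 521.7. Within each replicate's own list the peak in Raf was the lowest of these 3, and that in Trl was above that in JIL-1 in replicates 1 and 2 but below it in replicate 3.

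The Polycomb group gene Psc held a peak with a signal of 1414.6 and replicate signals of 476.6, 480.0 and 494.4. The SET-domain gene upSET followed at 1358.3, with 532.8, 462.9 and 350.8, where replicate 3 was lowest. CG5854 held one of 1320.5 (421.9, 401.6 and 480.7 in the replicates) in an intron of 219 bp, 535 bp from the TSS. MYPT-75D, which encodes a targeting subunit of myosin phosphatase, held one of 1310.1 (461.4, 472.0 and 490.6 in the replicates).

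Next in rank was E23. This gene, which encodes an ABC transporter and is induced by ecdysone, held a peak at chr2L:3348179-3348424 with a signal of 1035.8 and replicate signals of 308.7, 340.0 and 399.8. Hr4, a nuclear receptor of the ecdysone response, held one at chrX:1963804-1964067 with 917.5 and replicate signals of 318.5, 329.4 and 270.6. The growth regulator Myc held one at chrX:3381784-3382049 with 907.1, 8764 bp from the nearest TSS and with replicate signals of 317.1, 276.9 and 297.0. At pnt, an ETS factor of EGF receptor signalling, the replicates differed most among the 20, as a ratio, with 147.2, 307.4 and 383.3, replicate 1 being lowest. The others were heph, sima, Pli, CG6330, mtgo, Fhos and a pair in CG46385, with signals from 781.3 to 1006.1. Of the host genes, heph encodes a polypyrimidine tract-binding protein, sima the hypoxia-inducible factor alpha subunit and Pli the ubiquitin ligase Pellino.

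**Figure D2:**
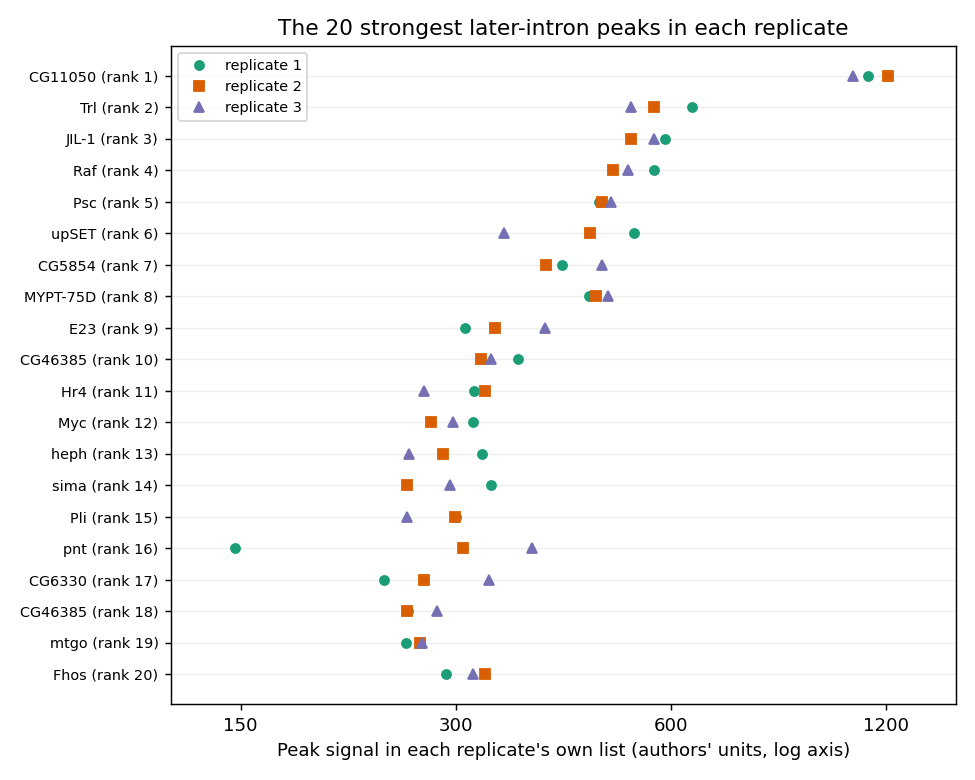
Signal of the 20 strongest members in each replicate's own list (authors' units, logarithmic axis), named by host gene and by rank among members. CG11050 lies apart at 1078.4 to 1207.5, and pnt has the widest spread on the log axis, from 147.2 to 383.3.

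The host introns were long. The median member lay in an intron of 13097 bp, 1801 bp from the nearest exon and 5239 bp from the nearest TSS. For all later-intron bases the medians were 13838 bp, 1880 bp and 8173 bp, so the median member lay closer to a TSS. Members also lay in introns of lower number, with a median of 2 and an upper quartile of 3, against 3 and 6 for all later-intron bases. In all, 919 members (64.0%) were in intron 2 of a transcript, and the highest intron number was 22. Members lay nearer the 5′ than the 3′ end of their intron in 823 cases (57.4%). Only 45 lay within 100 bp of an exon.

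Density was lower the higher the number of the intron. Per megabase there were 73.0 conservative members in intron 2, 49.9 in intron 3, 41.5 in introns 4 and 5, 15.8 in introns 6 to 9 and 5.54 from intron 10 on. The replicate lists gave 49.6 ± 4.37, 33.3 ± 4.44, 28.4 ± 2.84, 9.69 ± 0.996 and 3.79 ± 0.583 (SD, n = 3), in the same order. The density in intron 2 was on average 13.2 times that from intron 10 on (exact sign-flip permutation p = 0.25). Within introns of at least 5000 bp and under 50000 bp the decline was smaller, where the conservative densities were 78.7, 55.6, 50.1, 24.9 and 16.6 per megabase.

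Density also depended on intron length and on the distance from exons. It was 6.94 ± 0.612 per megabase in introns under 500 bp, reached 47.8 ± 4.40 at 10000 to 19999 bp and was 20.4 ± 2.46 in introns of 50000 bp and more (SD, n = 3 replicate lists). Within 50 bp of an exon it was 3.45 ± 0.863, at 1000 to 1999 bp it was 47.5 ± 2.84, and beyond 5000 bp 24.9 ± 1.62. From 500 to 5000 bp from an exon the means lay close together, at 44.0 ± 5.52 (500 to 999 bp), 47.5 ± 2.84 and 43.6 ± 6.47 (2000 to 4999 bp). The density at 1000 to 1999 bp was above that at 500 to 999 bp in each replicate. At 2000 to 4999 bp it was below that at 1000 to 1999 bp in replicates 1 and 2 and above it in replicate 3. With distance from the TSS it went from 59.2 ± 9.89 at under 1000 bp to 10.5 ± 0.700 at 20000 bp and more.

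**Figure D3:**
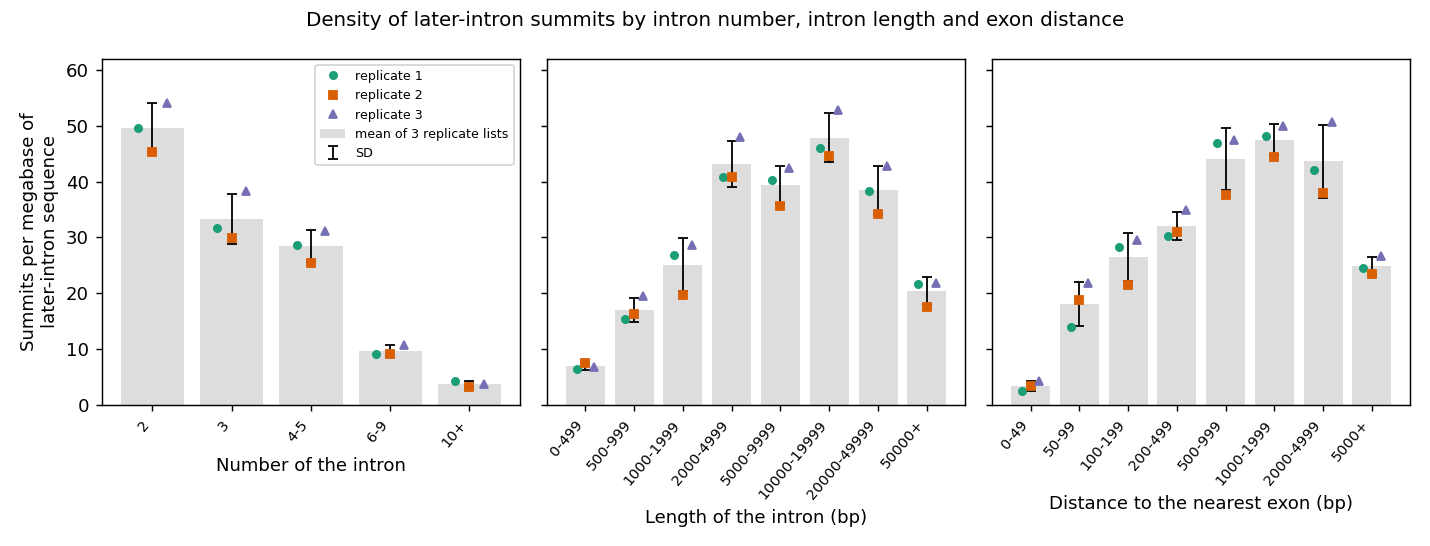
Later-intron summits per megabase of later-intron sequence, by the number of the intron, its length and the distance to the nearest exon (bars, mean of 3 replicate lists; error bars, SD; symbols, each replicate). Density goes down from intron 2 to intron 10 and beyond, and is lowest in short introns and next to exons.

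Among chromosomes, later introns of the X held 68.0 members per megabase and those of 3R 37.0, with 2L, 3L and 2R between at 47.0 to 56.2. In the replicate lists the X had 47.6 ± 3.46 and 3R 25.6 ± 1.51 (SD, n = 3), and their values did not overlap. The X held 1857 conservative peaks of all classes and 3R held 2081, beside 341 and 314 members. The density of all peaks was not compared between chromosomes, so the difference is not shown to be particular to later introns. Chromosome 4 has 0.416 Mb of such sequence and held no member. It also held no conservative peak of any class, so this is not particular to introns.

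Near the limit of 500 bp that separates members from promoter peaks, the members just outside it lay in MESR3 (511 bp from a TSS, signal 187.2), pyd (513 bp, 124.1) and cl (523 bp, 79.2). The nearest peaks left out lay in CAP (496 bp, 152.6), cnc (495 bp, 147.0) and tn (493 bp, 142.1). In all, 249 later-intron summits lay within 500 bp of a TSS and were counted as promoter peaks.

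Members gathered in few genes. They lay in 713 introns of 561 genes, which is 7.39% of the 7595 protein-coding genes with such sequence. With only peaks found in both of 2 replicate lists, leaving out each replicate in turn, the share was 4.63% to 4.86%. Genes without a member had little such sequence, with a median of 0.264 kb. One member was found in each of 423 introns, while 290 introns held several. In this way 1012 members (70.5%) shared their intron with another. The 51 introns with 5 or more held 395 members, and the 21 genes with 10 or more held 267 (18.6%). A conservative summit of any class lay within 1000 bp of 527 members (36.7%), and the median distance to the nearest one was 1522 bp.

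The gene with most members was kirre (FBgn0028369), which encodes an immunoglobulin superfamily protein of myoblast fusion, with 27 in 293.1 kb of later-intron sequence. Of these 15 were in all 3 replicate lists, 7 in none, and the replicate lists held 20, 19 and 19 summits there. Per length this came to 92.1 members per megabase, against 48.6 over all later introns. Eip74EF, an ETS factor induced early by ecdysone, held 13 in 26.5 kb, or 490.8 per megabase, with 6, 6 and 7 in the replicates. The remaining genes among the 10 with most members were CG1677, mam, heca, luna, Hr4, mtgo, rdx and twi, with 12 to 18 members each. At 12 members rdx and twi were level with bun, Glut4EF, CG46467, plum, mamo and hth, so the last places among the 10 are ties. Glut4EF and CG46467 overlap and had identical counts and signals, so they are not separate cases. CG42741 lies within the span of twi and held 6 members, with the same highest signal of 512.1. CG32795 lies within that of kirre and held 2, also with the same highest signal (668.6). Of the 10 genes, mam encodes a co-activator of Notch, luna a Krüppel-like zinc finger factor, rdx a Cullin adaptor that acts on Hedgehog signalling and twi a bHLH factor of the mesoderm. At mam the replicates held 7, 9 and 14 summits, with replicate 3 highest.

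The single introns with most members were intron 4 of kirre (17 members in 70622 bp, signals 84.0 to 531.2) and intron 2 of CG1677 (17 in 73902 bp, 11.2 to 475.8). Those of heca and luna held 15 each and that of rdx 12. The CG1677 intron contains 9 other protein-coding genes, among them brk, a repressor of Dpp target genes. None of its 17 members had the TSS of CG1677 as the nearest one: 6 lay nearest to brk, 6 to unc-119, 4 to CBP and 1 to CG42780. All 15 in luna also lay nearer to other genes, 11 to CG43188 and 4 to a long non-coding RNA gene. In rdx, by contrast, all 12 lay nearest to rdx itself, and in heca 11 of 15 to heca. Over all members, the nearest TSS belonged to a host gene in 717 cases and to another gene in 718. The host gene is therefore named here as a position and not as a target, and 45 members lay in introns of more than 1 gene.

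Genes with a member also had summits elsewhere more often. A conservative promoter summit was present in 61.1% of the 561 host genes and in 27.0% of the 7034 genes without a member. A first-intron summit was present in 44.7% and 10.4%. In the replicate lists the promoter shares were 50.3% ± 8.27 and 22.1% ± 2.44, and the first-intron shares were 39.3% ± 3.85 and 8.95% ± 0.410 (SD, n = 3). The host genes had the larger share in 3 of 3 replicates for both classes (exact sign-flip permutation p = 0.25). The median host gene had 11.3 kb of later-intron sequence, far more than the median gene without a member, and the part of length in these shares was not tested.

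The density of members was then described for 21 lists of genes by function, beside 48.6 per megabase for all later introns (32.8 ± 3.16 in the replicate lists, SD, n = 3). Counts of genes with a member stand beside the 7.39% of all genes with later-intron sequence that held one. The part of gene length in these shares was not tested either. The regulators of the ecdysone response had 79 members in 11 of 19 genes with later-intron sequence (57.9%), at 238.3 per megabase. Their replicate densities were 150.8, 135.7 and 211.1, so replicate 3 was the highest and all 3 lay above the overall value. Within introns of at least 5000 bp and under 50000 bp the replicate density was 182.1 ± 39.6 for these genes and 41.8 ± 4.02 for all later introns. Hr4 held 13 members with signals up to 917.5. The competence factor ftz-f1, a nuclear receptor of the mid-prepupal stage, held 9, of which 7 were in all 3 lists, with a highest signal of 580.3. Eip75B, an early ecdysone-induced nuclear receptor, held 11, but only 1 was in all 3 lists, and the replicate lists held 2, 3 and 11 summits there. That gene thus gave 11 of the 70 summits of the list in replicate 3. Blimp-1, br and chinmo held no member, in 0.951, 23.4 and 17.2 kb. In chinmo the lists of replicates 2 and 3 held 1 summit each.

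Genes of the Dpp and Hedgehog pathways, which pattern imaginal discs, had the highest density in the conservative list, 248.9 per megabase, but from 18 members in 0.0723 Mb and 5 of 20 genes. Most lay in a pair of them: shn, a zinc finger co-factor of Dpp signalling, had 6 members in 7.70 kb, and Dad, an inhibitory Smad, had 5 in 9.72 kb. The replicate density was 193.6 ± 13.8, with 207.4, 179.8 and 193.6 in the single replicates, and in replicate 3 the ecdysone list was the higher. The EGF receptor and Ras pathway had 19 members at 134.3 per megabase, in 3 of 18 genes (16.7%): 8 in Raf, 9 in pnt and 2 in the phosphatase gene csw. The Notch pathway had 29 members at 145.3 per megabase, 16 of them in mam, with 2 in N, the receptor gene, and 3 in the protease gene kuz. The Wnt pathway had 34 at 118.6, among them 1 of signal 508.0 in wg, the ligand, 9 in arr, a co-receptor, and 6 in fz, a receptor.

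Polycomb and trithorax group genes had 10 members in 4 of 24 genes (16.7%), with Psc strongest, and skd and osa holding 6 and 2. Epidermis markers had 7, of which 6 were in grh, an epidermal transcription factor, and trachea markers had 9 in 6 of 10 genes (60.0%). Cell junction genes (98.9 per megabase, with 10 members in the adhesion gene ed), BTB factors (83.0) and patterning factors (81.5, with 12 members in hth) also lay above the overall value. Muscle genes lay close to it at 51.9, with replicate values of 40.4, 23.1 and 51.9 on both sides of the overall replicate mean. In all, 13 of the 21 lists were above the overall density.

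Genes for neuronal function stood at the other end in members per megabase. The Dpr and DIP families, immunoglobulin proteins that match synaptic partners, have 1.08 Mb of later-intron sequence and held 5 members, in dpr6, DIP-alpha and dpr2, with signals of at most 134.7. None of the 5 was in all 3 replicate lists, and the lists held 3, 1 and 1 summits (1.55 ± 1.07 per megabase, SD). Ion channels and neurotransmitter receptors held 11 members in 7 of 45 genes and 0.980 Mb (7.48 ± 0.589 per megabase in the replicates), and 4 of these were in NaCP60E, which encodes a voltage-gated channel. The neuron markers held 2 members in 0.478 Mb, 1 in Syn with a signal of 408.0 and 1 in fne with 174.9. The share of genes with a member was not below that of all genes with later-intron sequence. It was 9.38% for Dpr and DIP genes, 15.6% for channels and 11.8% for neuron markers, against 7.39% of all genes. These shares are not matched for length, since genes without a member had a median of only 0.264 kb of such sequence. Because density was lower in the longest introns in general, introns of at least 5000 bp and under 50000 bp were also taken alone. There the replicate densities were 1.87 ± 1.87 for Dpr and DIP genes and 11.1 ± 1.02 for channels, against 41.8 ± 4.02 for all. Axon guidance genes lay between, at 22.6 ± 3.02, with members in Nrg (5), Ten-a (4) and Sema1a (3) and none in the 102.0 kb of CadN. RNA-binding regulators (25.7 ± 2.99) and cyclic nucleotide signalling (27.6 ± 3.46) lay near or just below the overall mean.

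**Figure D4:**
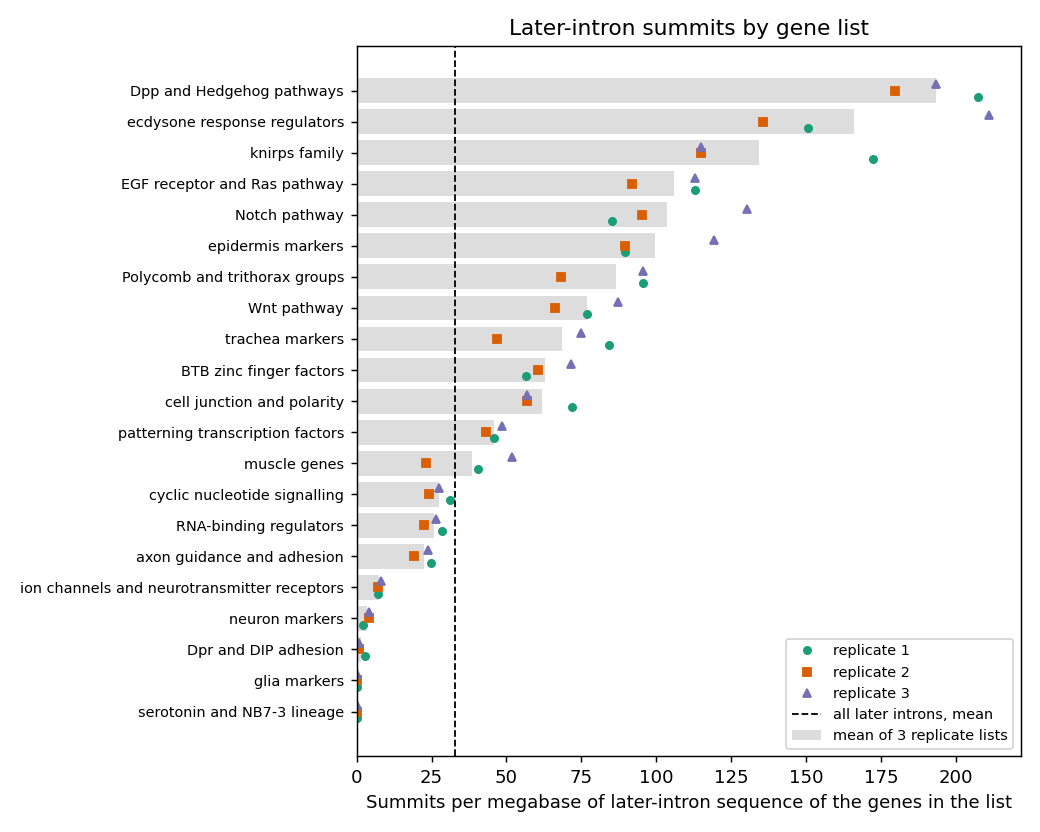
Later-intron summits per megabase of later-intron sequence for the genes of each list (bars, mean of 3 replicate lists; symbols, each replicate; dashed line, all later introns at 32.8). The ecdysone and Dpp and Hedgehog lists lie above the line in every replicate, and the neuronal lists at the bottom lie below it in every replicate.

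The genes tied to the known role of Eagle gave little later-intron sequence to look at. The list for serotonergic neurons and the neuroblast 7-3 lineage held no member, but its 11 genes together have 0.0599 Mb of such sequence, so a count of 0 still allows 50.1 per megabase (3 summits, counting error only), which is no lower than the overall 48.6. The glia list held none in 0.00476 Mb, which allows 630.3 per megabase. In the knirps family, eg has 0.0560 kb and kni 0.00800 kb, with no member. knrl held 2, both in all 3 replicate lists. The one at chr3L:20600765-20600926 had replicate signals of 82.9, 83.2 and 66.0, and that at chr3L:20612885-20613244 had 46.5, 40.2 and 81.8. Replicate 3 was the lowest at the former and the highest at the latter. Among further loci with many peaks, later introns held 15 members in heca, 12 each in mamo and Glut4EF, 11 in Tet, 6 in shn, 2 in Tlk and 1 in sbb.

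Members shared a narrow dip in GC content at the summit. Over all members the window of 50 bp to either side of the summit had 35.5% G and C, the windows 200 bp away 44.8%, those 1000 bp away 41.3%, and all 268170 windows of that size in later introns 39.9%. The summit window was thus poorer, and the flanks richer, than later introns in general. In the replicate lists the summit had 32.7%, 33.4% and 34.9% and the flanks 45.8%, 45.5% and 45.0%, a difference of −11.8 ± 1.51 percentage points (SD, n = 3; exact sign-flip permutation p = 0.25). The summit was the poorer of the pair in 1065 members (74.2%).

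The dip was deeper in stronger members and was not seen in the weakest quartile. By quartile of signal from the weakest up, the summit had 42.8%, 35.7%, 32.5% and 30.8%, and the flanks 42.2%, 44.9%, 45.2% and 46.8%. The weakest quartile of 359 members includes the 93 with a signal under 40, of which 88 overlapped another conservative peak. The part of such overlap in the missing dip was not tested. Members in all 3 replicate lists had 32.1% at the summit, and those in none had 40.7%. Conservative peaks in first introns (35.6% against 43.5% in their flanks) and intergenic peaks (34.7% against 45.6%) had a dip of like size. At promoters it was shallow, with 40% against 42.6%. The base composition is therefore not particular to later introns.

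**Figure D5:**
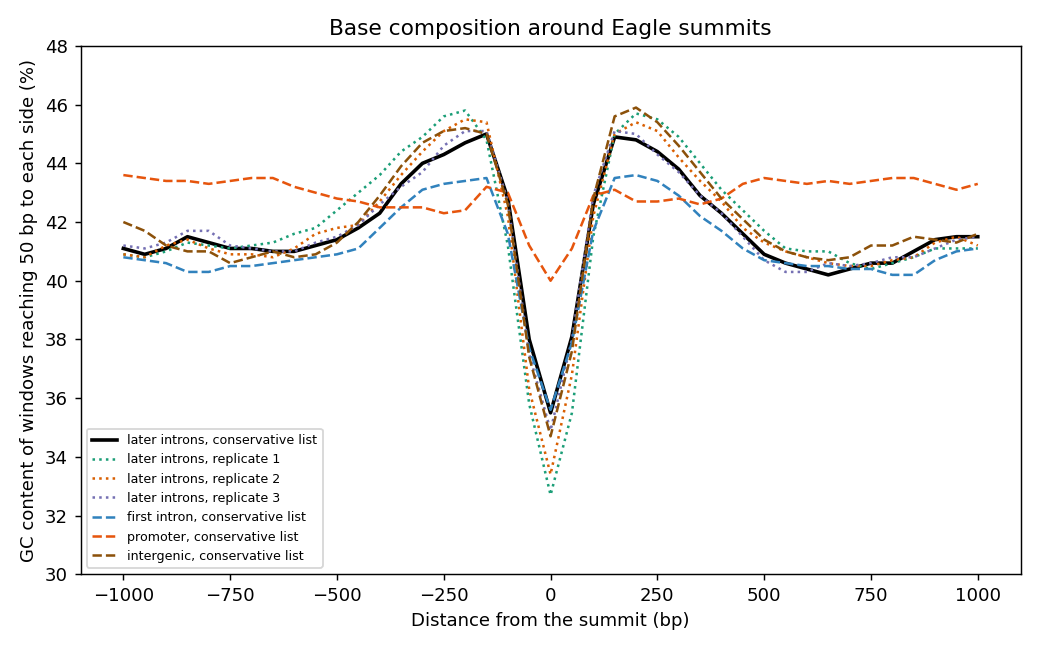
GC content (%) of windows reaching 50 bp to either side against distance from the summit (bp) for members (solid, conservative list; dotted, each replicate list) and for conservative peaks of other classes (dashed). At the summits of later introns GC content drops to 32.7% to 35.5% between shoulders of higher GC content (44.8% at 200 bp for the members), while promoter peaks show only a shallow dip.

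Of 24 short motifs searched on both strands in the summit windows, the most frequent was AAAAAAAA. It was present in 273 members (19.0%), in 7.60% of windows 300 bp away and in 6.82% of all later-intron windows. Its log2 ratio of summit over flank, with 0.1 percentage points added to each share, was 1.11, 1.18 and 1.33 in the replicates (1.21 ± 0.11, SD, n = 3; exact sign-flip permutation p = 0.25, adjusted p = 0.375 over the 24 motifs). Its share did not rise with signal: it was 20.1% in the weakest quartile and 17.3% in the strongest. The motif is itself made of A and T, and its part in the GC dip was not tested.

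Other motifs more frequent at the summit than in the flanks in all 3 replicates were mostly rich in A and T as well. TTATCA, the core of GATA factor sites, was in 8.15% of members, 5.57% of flanks and 6.54% of all windows (log2 ratio 0.68 ± 0.23). TAATTA, a homeodomain core, was in 7.87%, 6.20% and 7.34% (0.64 ± 0.16). TATTTAT was in 7.60%, 5.78% and 7.17% (0.53 ± 0.36). Measured against all later-intron windows rather than flanks, these 3 differed little. TGATAAG, which contains the reverse complement of TTATCA, was in 2.23%, against 1.31% of all windows, and the forkhead motif TGTTTAC in 2.23%, against 2.02%. GGTCACAC (0.279%, against 0.156%) and TATCGATA (0.209%, against 0.244%) were rare.

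The motifs less frequent at the summit in all 3 replicates held more G and C. The nuclear receptor half-site AGGTCA was in 24 members (1.67%), 2.20% of flanks and 2.57% of all windows, with log2 ratios of −0.49, −1.40 and −0.64. The E-box forms CAGCTG (2.37%, against 3.38% of all windows), CACGTG (0.767%, against 1.08%) and CACATG (3.97%, against 4.55%) went the same way, as did the TEAD motif GGAATG (3.07%, against 4.75%). GCAACA was in 8.15% of members and 8.01% of all windows but in 13.6% of flanks, so it was frequent in the flanks rather than scarce at the summit. CACACACA (2.86%, against 2.59%) and the Grainyhead motif AACCGGTT (0.0697%, against 0.0753%) were also lower than in the flanks.

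The remaining 8 motifs had no common sign across the replicates in the comparison with flanks. GAGAGAG, the motif of the GAGA factor, was in 2.65% of members and 2.51% of flanks but in 1.37% of all windows. CTCTCTCT, which overlaps it on the other strand, was in 1.60% of members and 0.685% of all windows. Against all windows their log2 ratios of 0.90 and 1.12 were the largest after that of AAAAAAAA (1.47). The Zelda motif CAGGTAG was another of the 8, as was CAAGGTCA, which contains the half-site above. The AP-1 motif TGAGTCA, the CREB motif TGACGTCA and the Su(H) motif CGTGGGAA were too. The last, TAGAGCA, was in 8 members (0.557%), 0.592% of flanks and 0.911% of all windows. A match is only a run of letters in the window and does not show that a factor binds there.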

How the data were processed

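The authors' ChIP-seq peak lists on dm6 cover 3 biological replicates of 1 group, from sonicated chromatin, per the labels. The sources used here do not give the aligner, the peak caller or their versions, and the control was not analysed here. Per the file headers, series lists come from the reads of all 3 replicates, each replicate list from its own. The signal of a peak is the authors' strength value, whose scale differs between lists. The deposited score derives from the irreproducible discovery rate (IDR), and its lowest value of 830 corresponds to an IDR of 0.01. The deposited −log10 q-values served as an alternative rank. In the ranked series lists 32 further columns were not used, since nothing ties them to a replicate. Read depth is unknown.

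Genes came from Ensembl release 115 (BDGP6) without 5809 transposon genes, and sequence from RefSeq's copy of the same assembly. A member whose summit lay in several introns was given the shortest, with its lowest number in any transcript. Peaks were shared where they overlapped by 1 bp or more. Replicate lists were classed by the same rule, and n = 3 refers to them. The only test was a two-sided exact sign-flip permutation test over the replicates, with Benjamini-Hochberg adjustment where stated. Wilson intervals cover counting error only, and neighbouring peaks are not independent. The code was tested on simulated summits. Of 460 list entries, 5 took a current symbol and 1 had no match. A further list is not reported here.

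The text names the 20 strongest members in all 3 replicate lists, the 10 genes and 5 introns with most members and, per list, up to 3 genes with the strongest member and up to 3 without one in alphabetical order. It also names eg, kni, knrl, a set of loci with many peaks, the neighbours of members in those introns and the 3 peaks on each side of the TSS limit. Members, lists and motifs were chosen with earlier results of these data known. The tools were Python (3.11.15), NumPy (2.4.6), pandas (2.3.3), matplotlib (3.10.9) and SciPy (1.17.1).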

Additional observations from a re-analysis of the deposited data

How the results depend on the processing

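No paired analysis was possible because there is 1 group. With 3 replicates no test can reach 0.05, and unknown read depth sets a limit on weak peaks. Of 188 alternatives, 143 left the value within its error, kept its sign or, for the number of members, stayed within a set factor. Part of the 143 could not have come out otherwise. Where all 3 replicates share a sign, leaving 1 out cannot reverse it. Where the limit was the SD of the replicates, the mean of the remaining ones always stays within it. The 143 are thus no measure of how stable the results are. Some of the 143 brought a large change in size. The density in intron 2 over that from intron 10 on was 13.2 and became 4.65 in introns of at least 5000 bp and under 50000 bp. The members were 1842 in 1 of the 3 other series lists. With a TSS limit of 200 bp the members were 16.5% of conservative summits and 16.1% of replicate summits, with median distances of 1620 bp to an exon and 4644 bp to a TSS. With 1000 bp these were 14.1%, 13.6%, 2038 bp and 5771 bp, and 8.46% of genes held a member. Leaving out non-coding gene bodies gave 14.1% of replicate summits. Of the 3 other series lists, 1 gave 6.81% of genes with a member, and another gave 8.60%, with 73.1% of members sharing an intron.

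With only peaks at or above the median signal, there were 679 members, 14.5% of conservative summits (13.8% in the replicate lists). Of these 54.2% shared an intron, 4.85% of genes held one and 80.4% were in all 3 replicate lists. The share of members in all 3 lists was 35.5% when 50% of the peak had to overlap and 92.0% with the ranked lists. Leaving out each replicate in turn, which keeps only peaks in both other lists, gave 680 to 706 members, 14.2% to 15.0% of summits, a median signal of 213.9 to 219.6, 56.8% to 58.8% sharing an intron and 4.63% to 4.86% of genes. Of all members 47.4% to 49.2% were in both remaining lists.

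The log2 ratio of TAGAGCA, 0.12 in the replicate lists, was −0.03 in narrower windows, −0.00011 in wider windows and −0.07 with the conservative members. It was −0.08 to 0.26 with a replicate left out (−0.08 without replicate 3), so it has no direction. The cause was not tested. Alternatives for GC content, intron number and list densities were chosen after the data were seen. The density of members was 238.3 per megabase for the ecdysone list, 4.64 for Dpr and DIP genes and 11.2 for ion channels with the longer conservative list, and 11.1 for ion channels in introns of at least 5000 bp and under 50000 bp.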

Other observations

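Many members lay in one gene but nearest to the start of another. The following cases, chosen after their values were seen, are among the 10 pairs of a host and a nearest other gene with most members. In kirre and in luna 11 members each were nearest to CG4116 and to CG43188. In arr 8 members with signals up to 504.5 were nearest to CG43192 and in hth 8 (up to 229.1) to mir-4944, a microRNA gene. In osp 7 members with signals up to 433.1 were nearest to Adhr, a gene beside Adh that lies within osp. In Eip75B 7 members (up to 499.9) were nearest to a long non-coding RNA gene. These are positions, and no value here shows which gene a site acts on.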
